A study of Mus musculus with 4 samples.

Results

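The endothelin, adrenomedullin and angiotensin-converting genes were examined as 8 members named by symbol: *Edn1*, *Ece1*, *Ednrb*, *Adm*, *Calcrl*, *Ramp2*, *Ramp3* and *Ace*. They were chosen as a pathway and not by their values, and all 8 were found among the genes listed for the 4 plates, although *Ednrb* had no row for EC-KO mouse 1 and *Adm* none for EC-WT mouse 1. Single cells were sorted from whole aortas as CD31+ CD45- TO-PRO-3- and sequenced by SORT-seq, with 1 plate of 384 wells for each mouse. SORT-seq tags each captured transcript end with a unique molecular identifier (UMI), so levels are given here as CPM, the UMIs of a gene scaled to 1000000 UMIs of the mouse, ERCC spike-ins and mitochondrial rows left out. The 2 mice labelled EC-KO carried Epas1fl/fl with Cdh5Cre/+, a tamoxifen-inducible recombinase under an endothelial promoter, and the 2 mice labelled EC-WT were littermates with Epas1fl/fl and Cdh5+/+, which lack Cre. Tamoxifen was given to both groups when the mice, matched for age and sex, were 6 weeks old; aortas were taken 2 weeks after that and stripped of adventitia before digestion. The 4 mice are given below in the order EC-KO mouse 1, EC-KO mouse 2, EC-WT mouse 1 and EC-WT mouse 2.

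Of 1536 wells, 441 held at least 1000 UMIs with at most 25% of them mitochondrial, and 255 of these came from the mice labelled EC-KO and 186 from those labelled EC-WT. The study states more cells for its control genotype than for its knockout, the opposite of the deposited labels, so groups are named here as labelled and no direction between them is read as an effect of *Epas1*. A smooth muscle list of 11 genes took up at least 1% of UMIs in 21 wells, which were set apart, as the study did with its smooth muscle cluster. This left 420 endothelial cells (EC; 146, 93, 111 and 70 in the 4 mice) with 549570 to 1009034 UMIs per mouse and a median of 3821 to 7419 UMIs per cell. A list of 14 endothelial markers summed to 11142 to 14640 CPM in these cells, and lists of immune, lymphatic and pericyte markers to at most 14.6, 74.6 and 57.5 CPM. Fibroblast markers ranged from 879 to 2516 CPM and smooth muscle markers from 206 to 930 CPM, highest in a mouse labelled EC-KO in each case. *Epas1* itself stood at 3046 ± 436 CPM (SD, n = 4), but a read of the 3′ end does not show whether the floxed exon was removed. EC-KO mouse 2 and EC-WT mouse 1 shared a flow cell and the other mice had 1 each, and the same well barcodes are used on every plate. Of the 98 and 114 wells kept on that flow cell, 49 positions were kept on both plates. That count was not set against the overlap expected by chance, and exchange of barcodes between these plates was not tested. No doublet caller was run.

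Endothelin-1 is a vasoconstrictor peptide that endothelium makes as an inactive precursor; endothelin-converting enzyme, the product of *Ece1*, cuts it to the active form, which acts on the ETA receptor of smooth muscle (*Ednra*) and on the ETB receptor (*Ednrb*). Adrenomedullin (*Adm*) is a vasodilator that acts on a receptor built from the protein of *Calcrl* and a partner that carries it to the surface, encoded by *Ramp2* or *Ramp3*. Angiotensin-converting enzyme (*Ace*) sits on the endothelial surface, where it makes angiotensin II and breaks down bradykinin.

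The promoters of *Edn1* and *Calcrl* are shown because the levels of these 2 members moved in opposite directions between cells. Each window runs from 250 bases before to 50 bases after the gene's start in RefSeq (GRCm38.p6), 5′ to 3′ on the gene's strand. The gene spans given with each member below come from GENCODE, whose starts can differ from those of RefSeq, as for *Calcrl*. Of the 8 members, 7 have at least 1 window (*Ramp2* is the exception). Capitals mark matches, on either strand, to CACCC (bound by KLF factors), ACGTG or GCGTG (the core bound by hypoxia-inducible factors) and GGAATG (bound by TEAD factors); TGANTCA (bound by AP-1) was searched as well.
Edn1, chr13:42301226-42301525, plus strand: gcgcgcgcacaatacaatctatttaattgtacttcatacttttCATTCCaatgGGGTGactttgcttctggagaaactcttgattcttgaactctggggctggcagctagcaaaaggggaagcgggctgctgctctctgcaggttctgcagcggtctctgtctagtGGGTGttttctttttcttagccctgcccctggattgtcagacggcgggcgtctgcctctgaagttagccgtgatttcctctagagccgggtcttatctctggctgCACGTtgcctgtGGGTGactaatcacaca
Calcrl, chr2:84425217-84425516, minus strand: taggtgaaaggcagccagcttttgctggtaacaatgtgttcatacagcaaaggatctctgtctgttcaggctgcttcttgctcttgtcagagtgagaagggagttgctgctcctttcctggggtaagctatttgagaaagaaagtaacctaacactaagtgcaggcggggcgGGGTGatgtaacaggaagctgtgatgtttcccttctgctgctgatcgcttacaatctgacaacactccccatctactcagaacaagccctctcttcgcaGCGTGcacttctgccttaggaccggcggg
The *Edn1* window held CACCC 3 times and ACGTG or GCGTG and GGAATG 1 time each. The *Calcrl* window held CACCC and ACGTG or GCGTG 1 time each and no GGAATG. Neither held TGANTCA. Among all 32851 promoters of the same length, 57.5% held CACCC, 43.8% ACGTG or GCGTG, 14.7% GGAATG and 7.81% TGANTCA, so the first 2 are common in promoters, and a match describes the sequence and is no evidence that a factor binds there.

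In these aortic EC, both converting enzymes and *Calcrl* and *Ramp2*, which form an adrenomedullin receptor, were abundant and found in most cells. *Edn1*, the vasoconstrictor precursor, was several times lower and was found in 33.3% to 52.9% of cells. *Adm*, *Ednrb* and *Ramp3* were near the limit of detection.

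*Edn1* (chr13:42301476-42307990, plus strand, GRCm38) had 315, 188, 217 and 349 CPM in the 4 mice, from 318, 142, 139 and 192 UMIs. The mice of both labels overlapped, with the highest and lowest values in different groups. An *Edn1* UMI was found in 44.5%, 35.5%, 33.3% and 52.9% of cells, and in 18.5%, 17.2%, 10.8% and 24.3% once every cell was thinned to 1000 UMIs. The 10% of cells richest in *Edn1* held 60.4%, 71.8%, 69.1% and 43.8% of all its UMIs, and single cells reached 31, 23, 16 and 16 UMIs. Within each mouse this share was higher than that of *Ece1*, *Calcrl*, *Ramp2* and *Ace*, whose richest 10% of cells held 28.7% to 46.8%.

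*Ece1* (chr4:137862237-137965229, plus strand) had 796, 931, 878 and 839 CPM and was the steadiest member, with a coefficient of variation of 6.68% over the mice. It was found in 88.4% to 91.4% of cells, and in 49.3% to 63.4% once thinned to 1000 UMIs. The enzyme was thus found in more cells than its substrate in every mouse, thinned or not. *Ednrb* (chr14:103814625-103844402, minus strand) gave 5 UMIs in all EC, 0 in both mice labelled EC-KO (where the limit set at 3 UMIs is 2.97 and 3.97 CPM) and 3 and 2 in the mice labelled EC-WT. Of these 5 UMIs, 3 came from the 34 cells of the *Fabp4* and *Cd36* gate described below. These intervals and limits cover counting error only.

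*Adm* (chr7:110627661-110629820, plus strand) gave 3 UMIs in 2 cells, 2 and 1 in the mice labelled EC-KO and 0 in both labelled EC-WT, where the same limit is 4.68 and 5.46 CPM. The ligand was thus not measurable at this depth, while its receptor was. *Calcrl* (chr2:84330626-84425411, minus strand) had 627, 891, 700 and 590 CPM and was found in 79.5% to 84.9% of cells (40.4% to 54.8% thinned). *Ramp2* (chr11:101246028-101259546, plus strand) had 1197, 1675, 1505 and 1232 CPM, the highest mean of the members, and was found in 91.8% to 98.9% of cells (66.4% to 81.7% thinned). An exon of *Ramp2* overlaps *Vps25* on the same strand in the annotation, so some of its reads may be shared. *Ramp3* (chr11:6658521-6677475, plus strand), the alternative partner, had 4.96, 7.95, 9.36 and 5.46 CPM from 20 UMIs in all. *Ramp2* thus far exceeded *Ramp3* in each mouse. Among cells with at least 4000 UMIs (96, 71, 53 and 45), *Calcrl* and *Ramp2* were found together in 80.2%, 87.3%, 96.2% and 95.6%, where the product of their separate shares was 78.7%, 87.3%, 96.2% and 95.6%. *Ramp2* was found in 100% of these cells in EC-KO mouse 2, EC-WT mouse 1 and EC-WT mouse 2. In those mice the joint share must equal the product, so the comparison does not show whether the genes go together.

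*Ace* (chr11:105967945-105989964, plus strand) had 1162, 1471, 1339 and 1221 CPM and was found in 82.9% to 98.9% of cells (61.0% to 73.1% thinned). *Edn1*, *Ramp3* and *Ace* each overlap a predicted gene on the other strand (*Gm47118*, *Gm11978* and *Gm11651*), and whether the counting used strand is not given in the sources used here. In cells of at least 4000 UMIs, at least 4 of the 5 abundant members were found in 91.7% to 96.2% of cells, and all 5 in 36.5%, 29.6%, 41.5% and 55.6%, where *Edn1* was the member most often missing.

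**Figure D1:**
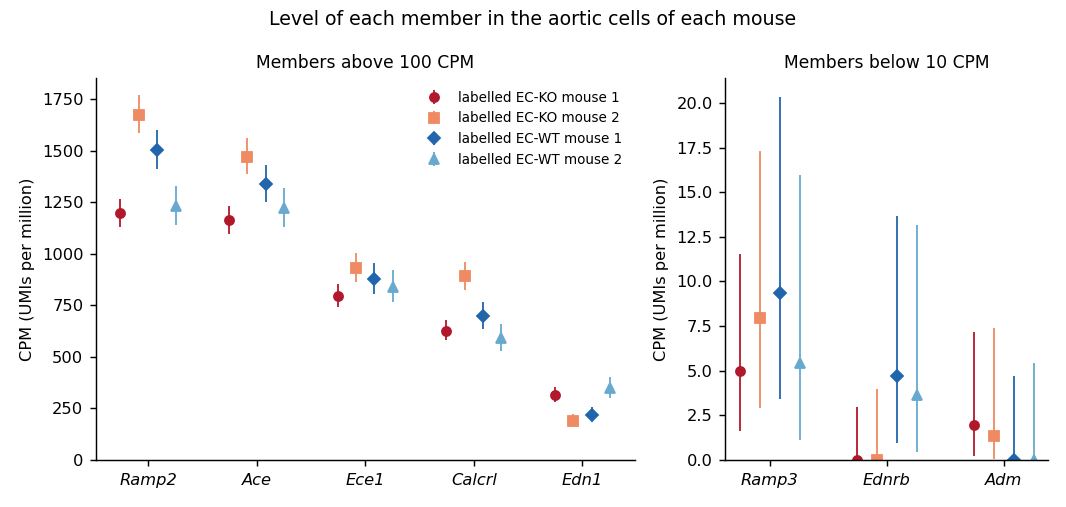
Level of each member in CPM in the EC of each mouse, with exact 95% Poisson intervals of the count (for a count of 0, the line ends at 3 UMIs); colours and shapes mark the 4 mice, and the right panel has its own scale. *Ramp2*, *Ace*, *Ece1* and *Calcrl* lie above 500 CPM in every mouse, *Edn1* between 188 and 349, and *Ramp3*, *Ednrb* and *Adm* below 10.

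Ordered by mean, the levels were 1402 ± 228 CPM for *Ramp2*, 1298 ± 137 for *Ace*, 861 ± 57.5 for *Ece1*, 702 ± 134 for *Calcrl* and 267 ± 77.2 for *Edn1* (SD, n = 4), with 6.93 ± 2.08 for *Ramp3*. *Ramp2* exceeded *Ace*, and *Ece1* exceeded *Calcrl*, in 4 of 4 mice, but the ranges of the mice overlapped in both pairs. The ranges did not overlap between *Ace* and *Ece1* (1.51 times), between *Calcrl* and *Edn1* (2.63 times) or between *Edn1* and *Ramp3* (38.6 times). *Ednrb* and *Adm* could not be ordered.

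The members abundant in EC were all lower in the 21 wells rich in smooth muscle genes. With 199931 UMIs in all, *Edn1* stood at 35.0 CPM (7 UMIs), *Ece1* at 110 CPM, *Calcrl* at 80.0 CPM, *Ramp2* at 315 CPM and *Ace* at 300 CPM, each lower than in the EC of any mouse. These wells also held 910 CPM of *Pecam1*, so endothelial RNA was present in them. The ETA receptor *Ednra* gave 10 UMIs there (50.02 CPM, in 3 wells) and 0 in all 420 EC. *Adm* gave 3 UMIs in 2 of these wells, and *Ednrb* and *Ramp3* gave 0. With few such wells per mouse, no test was made.

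The other genes of the pathways came from hand-written lists. Of 10 further endothelin genes, 5 had a UMI in EC and 2 reached 50 CPM: the proprotein convertases *Furin* (90.1 CPM) and *Pcsk5* (94.4 CPM). Of 10 further adrenomedullin-related genes, 8 had a UMI and 3 reached 50 CPM, led by *Pam* (1633 ± 59.7 CPM, SD, n = 4), the enzyme that amidates adrenomedullin and other peptides, with *Cxcr7* (now *Ackr3*), a scavenger receptor for adrenomedullin, at 380 CPM and *Vipr1* at 72.5 CPM. Of 20 further angiotensin and kinin genes, 14 had a UMI and 5 reached 50 CPM. These were *Cpe* (2150 ± 149 CPM), *Atp6ap2* (129 CPM), *Ctsa* (119 CPM), *Prcp* (86.6 CPM) and *Agtrap* (72.5 CPM). *Cpe*, a carboxypeptidase that processes many prohormones, is not specific to angiotensin or kinins. Angiotensinogen (*Agt*) and the receptor gene *Agtr1a* gave 1 UMI each in EC. Substrate and receptor of the angiotensin pathway were thus at the detection limit in the same cells in which *Ace* was abundant. Of 17 other vasoactive genes 7 reached 50 CPM, among them *Cav1* (2054 CPM), the nitric oxide synthase *Nos3* (615 CPM), the natriuretic peptide receptors *Npr1* (427 CPM) and *Npr2* (111 CPM), *Ptgs1* (363 CPM), the prostacyclin synthase *Ptgis* (345 CPM) and *Ddah2* (151 CPM). Of 16 genes that couple such receptors to their effectors 10 reached 50 CPM, led by the G protein subunits *Gnas* (3217 CPM), *Gnai2* (1223 CPM) and *Gnaq* (582 CPM). The others were *Arrb1* (211 CPM), *Adcy4* (204 CPM), *Gna11* (204 CPM), *Gnai3* (135 CPM), *Adcy6* (115 CPM), *Plcb4* (74.1 CPM) and *Adrbk1* (67.5 CPM).

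The members differed in how evenly cells shared them. With every cell thinned to 2000 UMIs, the variance of *Edn1* UMIs over cells was 2.47, 1.92, 2.81 and 2.61 times their mean, against 1.16 to 1.17 for the median gene. This was above 98.4%, 96.0%, 99.0% and 98.02% of the genes compared. *Ece1* (1.05 to 1.498) and *Ace* (1.12 to 1.53) lay on both sides of the median gene, while *Ramp2* (1.68 to 2.11) and *Calcrl* (1.41 to 2.48) lay above it in each mouse. The values describe cells within mice and carry no test.

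**Figure D2:**
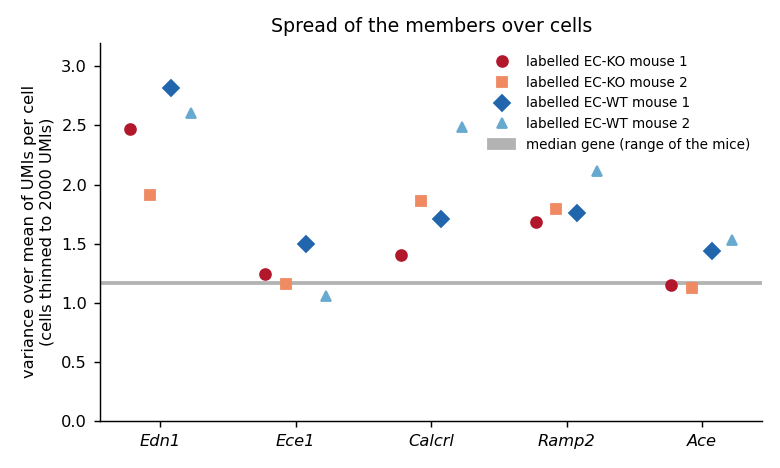
Variance over mean of the UMIs per cell for the 5 abundant members after thinning cells to 2000 UMIs; each point is 1 mouse, and the grey band is the range over mice of the median gene. *Edn1* lies between 1.92 and 2.81, and *Ece1* and *Ace* lie between 1.05 and 1.53, on both sides of the band at 1.16 to 1.17.

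Across the 357 EC with at least 2000 UMIs, cells high in *Edn1* tended to be low in the adrenomedullin receptor. Pearson's *r* of log2(CPM + 100) within a mouse averaged -0.26 for *Edn1* with *Calcrl* and -0.24 with *Ramp2*, negative in 4 of 4 mice. The receptor genes went together (*Calcrl* with *Ramp2*, 0.32), as did *Ramp2* with *Ace* (0.26) and *Ece1* with *Ace* (0.23), positive in 4 of 4 mice. *Edn1* and its converting enzyme *Ece1* did not go together (0.05, positive in 2 of 4 mice). These are descriptions of sparse counts: cells of a mouse share a plate and library, and depth differs between cells.

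Among 3743 genes found in at least 20% of cells of each mouse, those most like *Edn1* were *Bmp4* (mean *r* 0.48), a secreted growth factor, *Cyr61* (0.46), a matricellular target of YAP, and *Apoe* (0.37), while the most opposed were *Klf4* (-0.35), *Ptprj* (-0.34) and *Srgn* (-0.33). *Calcrl* was most like *Spon1* (0.39), *Srgn* (0.38) and *Epas1* (0.33). *Ramp2* shared 2 of these, *Srgn* (0.33) and *Spon1* (0.32), beside *Calcrl* itself. *Srgn* thus went with both receptor genes and against *Edn1*. *Ace* was most like the matrix genes *Bgn* (0.49) and *Spon1* (0.42) and the Wnt inhibitor *Sfrp1* (0.41), and opposed to *Aqp1* (-0.36) and *Fabp4* (-0.32). *Ece1* had weaker neighbours: *Stab1* (0.31), *Timp2* (0.28) and *Slc44a2* (0.25).

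**Figure D3:**
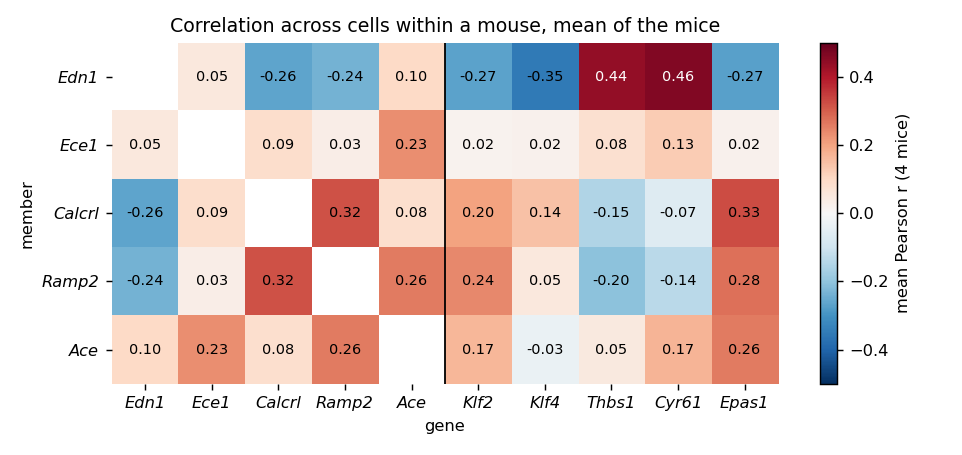
Mean over the 4 mice of the within-mouse Pearson correlation of log2(CPM + 100) across 357 EC, for the 5 abundant members (rows) with each other (left of the line) and with 5 further genes (right of it). *Edn1* is negative with *Calcrl* (-0.26), *Ramp2* (-0.24), *Klf4* (-0.35) and *Epas1* (-0.27) and positive with *Cyr61* (0.46).

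Mice were compared by label, EC-KO over EC-WT, and none of the 5 members tested differed beyond the spread between mice. Counts were summed per mouse and tested with the quasi-likelihood test of edgeR, adjusted by Benjamini-Hochberg over 8128 genes, of which 0 (0%) passed at an adjusted *P* of 0.05, 455 had an unadjusted *P* below 0.05, and DESeq2 called 0 with 115 below 0.05. The filter on low counts kept 5 of the 8 members here and in the comparisons below and removed *Ednrb*, *Adm* and *Ramp3*. The log2 fold change of EC-KO over EC-WT as labelled was -0.11 (SE 0.27, adjusted *P* = 0.988) for *Edn1*, 0.04 (SE 0.18, adjusted *P* = 0.998) for *Ece1* and 0.26 (SE 0.20, adjusted *P* = 0.920) for *Calcrl*. It was 0.10 (SE 0.21, adjusted *P* = 0.987) for *Ramp2*, 0.07 (SE 0.19, adjusted *P* = 0.988) for *Ace* and 0.19 (SE 0.21, adjusted *P* = 0.951) for *Epas1*. In each case the values of the mice of both labels overlapped. Between the pair of mice on the shared flow cell the differences were -0.20 for *Edn1*, 0.08 for *Ece1*, 0.35 for *Calcrl*, 0.15 for *Ramp2*, 0.14 for *Ace* and 0.00 for *Epas1*, with no test. No gene of the 5 pathway lists passed. The tested smooth muscle and fibroblast markers had median log2 fold changes of 1.46 and 1.59 (0 called), and their part in the members' values was not tested. With 2 mice per label, an absence of calls does not show that the groups are alike. The *P* values rest on the spread between these 4 mice, which the test moderates with the spread of all genes.

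The members were next compared between kinds of EC within each mouse. A gate of at least 3 UMIs of *Fabp4* plus *Cd36* summed, holding at least 0.1% of UMIs, found 34 cells (11, 4, 12 and 7). All 34 had a *Fabp4* UMI and 22 had a *Cd36* UMI, and they are called *Fabp4* and *Cd36* cells below. *Ace* was the 1 member that passed the test in the gated cells. *Fabp4* encodes a fatty acid-binding protein and *Cd36* a fatty acid transporter, and the gate used no member. *Ace* stood at 793, 850, 451 and 583 CPM in these cells against 1187, 1503, 1416 and 1270 CPM in the other EC of the same mice. It was lower in 4 of 4 mice and the levels of the gate and the other cells did not overlap. By edgeR's quasi-likelihood test with mouse as a block the log2 fold change was -1.07 (SE 0.20, adjusted *P* = 3.74e-04). It was 1 of 5 members tested to pass, where 5.2% of 4961 genes did (2.56% higher and 2.64% lower), and the median of all genes was -0.09. The difference was larger with cells thinned to 1000 UMIs (-2.40) and with a gate of 5 UMIs and 0.2% of UMIs (-1.87). After thinning, the gate was set again on the thinned counts. There 3 UMIs are a larger share of a cell, so that gate is stricter and its cells can differ from these 34.

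The genes of the adrenomedullin receptor did not pass in the *Fabp4* and *Cd36* cells, though *Ramp2* did under 2 of 11 alternatives. *Calcrl* had 575, 850, 1058 and 507 CPM against 631, 893, 669 and 596 CPM, lower in 3 mice and higher in EC-WT mouse 1, with a log2 fold change of 0.03 (SE 0.21, adjusted *P* = 0.981). *Ramp2* had a log2 fold change of -0.30 (SE 0.18, adjusted *P* = 0.520). It became -0.67 (adjusted *P* = 0.0147) without the filter on low counts. With cells thinned to 1000 UMIs and gated again on those counts, it was -1.44 (adjusted *P* = 0.00591). *Ece1* had a log2 fold change of -0.22 (SE 0.20, adjusted *P* = 0.745). *Edn1* had 482, 27.4, 157 and 203 CPM against 304, 196, 222 and 361 CPM, from 31, 1, 8 and 8 UMIs, too few to place it (log2 fold change -0.40, SE 0.35, adjusted *P* = 0.722).

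Of the other list genes, *Pam* fell by 0.88 (SE 0.20, adjusted *P* = 0.00491) and *Ptgis* fell by 2.60 (SE 0.39, adjusted *P* = 1.26e-05) on the log2 scale, and *Anpep*, an aminopeptidase that trims angiotensin peptides, rose by 2.04 (SE 0.52, adjusted *P* = 0.0114). These were 1 of 3 adrenomedullin-related, 1 of 8 vasoactive and 1 of 6 angiotensin and kinin genes tested, with 0 of 2 endothelin and 0 of 11 coupling genes. *Epas1* was lower as well (-0.54, SE 0.16, adjusted *P* = 0.0357), a call lost under 9 of 11 alternatives, against 4 of 11 for *Pam*, 1 of 10 for *Ptgis* and 4 of 10 for *Anpep*. The gated cells also differed in endothelial markers, with 5 of 13 tested higher, among them *Kdr* (4.92) and *Flt1* (2.68). The 2 lower were *Pecam1* (-0.78), the gene of the CD31 sort marker, and *Cldn5* (-1.16). Smooth muscle markers summed to 1820, 1179, 274 and 685 CPM in gated cells against 474, 917, 200 and 299.9 CPM in the others, with 1 of 4 tested higher. Fibroblast markers summed to 1229, 1426, 372 and 127 CPM against 2604, 1401, 923 and 1294 CPM, with 2 of 5 tested lower, *Col1a2* (-2.21) and *Pi16* (-2.11). The part of these markers in the lower *Ace* was not tested.

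**Figure D4:**
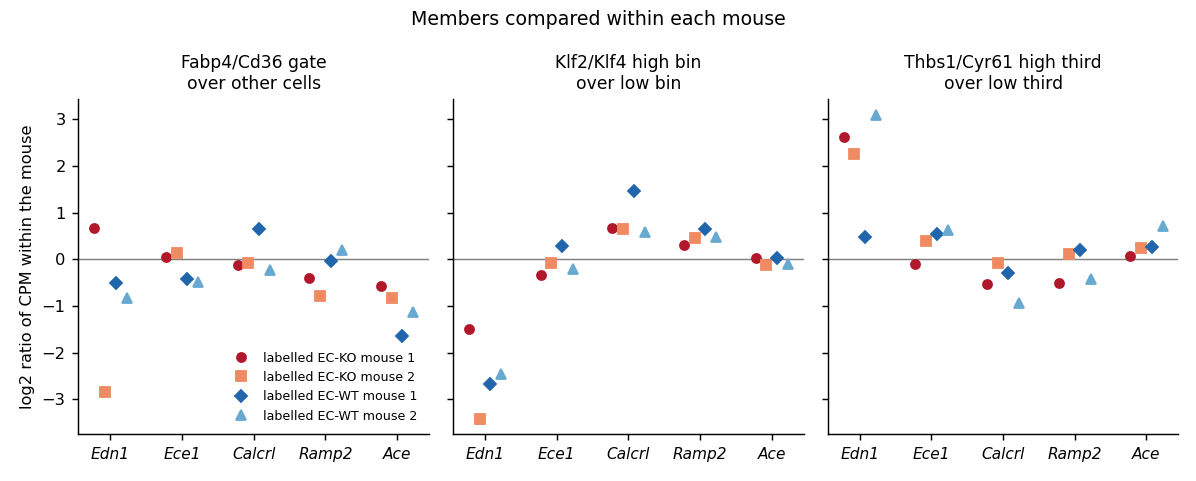
Log2 ratio of CPM within each mouse for the 5 members tested, between *Fabp4* and *Cd36* cells and other EC (left), and between the high and low bins of EC by *Klf2* plus *Klf4* (middle) and by *Thbs1* plus *Cyr61* (right); each point is 1 mouse. *Ace* lies below 0 in all mice on the left, and *Edn1* lies below 0 in all mice in the middle and above 0 on the right.

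*Klf2* and *Klf4* are transcription factors that endothelium raises under steady laminar flow. The 328 EC outside the gate with at least 2000 UMIs (121, 81, 75 and 51) were cut within each mouse into 3 equal bins by their share of *Klf2* plus *Klf4* UMIs, which uses no member. The split was chosen with earlier results of these data known. Cells in the high bin had less *Edn1* and more *Calcrl*. *Edn1* stood at 183, 34.2, 59.7 and 147 CPM in the high bin against 517, 366, 382 and 806 CPM in the low bin, from 63, 7, 8 and 21 UMIs against 158, 99, 76 and 88. It was lower in 4 of 4 mice and the levels of high and low bins did not overlap. The mean fell from 518 CPM in the low bin to 194 in the middle and 106 in the high bin. By edgeR's quasi-likelihood test with mouse as a block the log2 fold change was -2.32 (SE 0.24, adjusted *P* = 5.94e-06), or 4.99-fold lower.

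*Calcrl* moved the other way between these bins, from 514, 692, 347 and 504 CPM in the low bin to 821, 1090, 962 and 755 CPM in the high bin. The levels of high and low bins did not overlap, and the log2 fold change was 0.78 (SE 0.16, adjusted *P* = 0.00647), or 1.71-fold. EC-WT mouse 1 had the largest ratio (1.47 on the log2 scale, against 0.58 to 0.68 in the others), and without it the change was 0.60 and no longer passed (adjusted *P* = 0.10). *Ramp2* was higher in 4 of 4 mice (1383, 1969, 1850 and 1635 CPM against 1123, 1443, 1183 and 1181 CPM) but did not pass (log2 fold change 0.41, SE 0.12, adjusted *P* = 0.0909), although it did when cells were split on *Klf2* alone (0.49, adjusted *P* = 0.0388). *Ace* (-0.09, SE 0.12, adjusted *P* = 0.887) and *Ece1* (-0.14, SE 0.14, adjusted *P* = 0.847) did not pass either. In this comparison 2 of 5 members passed, 1 in each direction, where 2.14% of 3730 genes did (1.1% higher and 1.05% lower).

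*Nos3* (0.59, SE 0.15, adjusted *P* = 0.0425) was the 1 gene of the 5 other pathway lists that passed between the *Klf2* and *Klf4* bins, among 2 endothelin, 3 adrenomedullin-related, 5 angiotensin and kinin, 7 vasoactive and 10 coupling genes tested, and it lost the call under 10 of 14 alternatives. *Epas1* had 0.41 (SE 0.11, adjusted *P* = 0.0621). A list of immediate early and heat shock genes, which cell dissociation induces, moved with this split. It summed to 1022, 1450, 1248 and 1218 CPM in the low bin and 1587, 3773, 2566 and 2055 CPM in the high bin. Of its 10 genes tested 5 were higher: *Ier2* (1.17), *Jun* (0.95), *Junb* (1.32) and the heat shock genes *Hspa1a* (0.99) and *Hspa1b* (1.39). Fibroblast markers went from 2734, 1676, 835 and 1172 CPM to 1252, 1207, 1037 and 1006 CPM, with 2 of 4 tested lower, *Dcn* (-3.15) and *Col3a1* (-1.12), and *Pi16* higher (1.41). Of 11 endothelial markers tested 2 were higher, among them *Cldn5* (0.74), and 1 was lower, *Emcn* (-1.46). Median depth was 6998, 9718, 6694 and 5144 UMIs in low-bin cells and 6686, 7250, 4342 and 5992 in high-bin cells. The part of immediate early and heat shock genes in these results was not tested. Without 13 wells rich in fibroblast genes, a check added after the data were seen, *Edn1* had -2.31 and *Calcrl* 0.77. With cells thinned to 2000 UMIs, *Edn1* had -1.73 (adjusted *P* = 1.01e-05), while *Calcrl* had 0.49 and did not pass (adjusted *P* = 0.236).

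**Figure D5:**
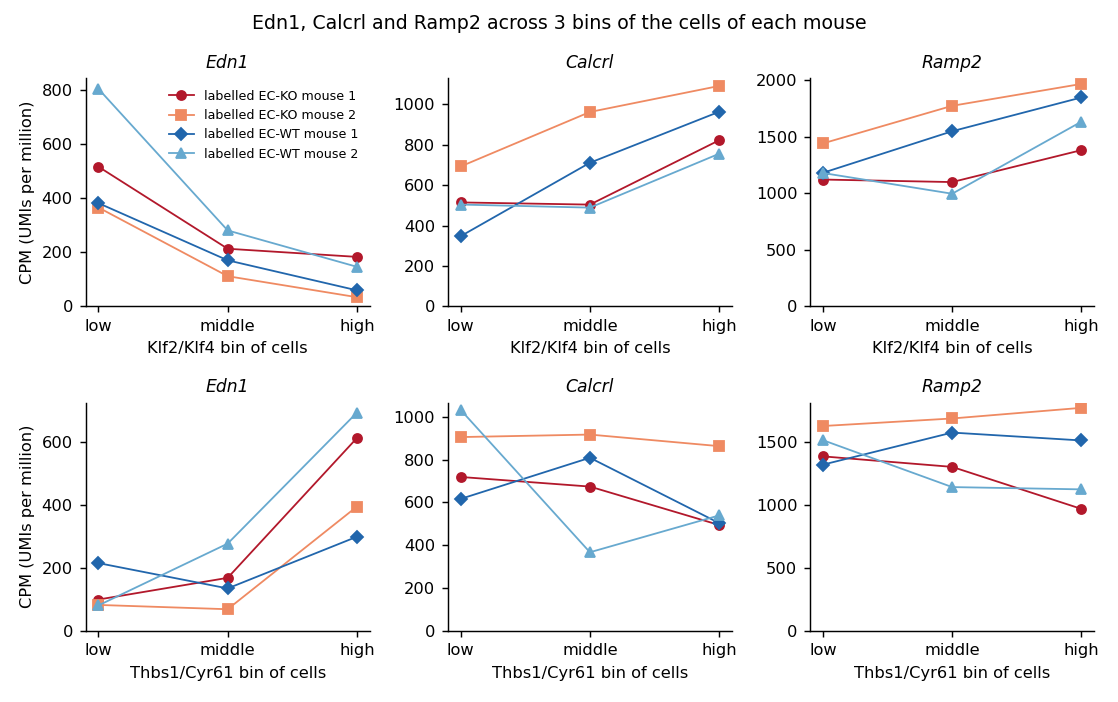
CPM of *Edn1*, *Calcrl* and *Ramp2* in the low, middle and high bins of the EC of each mouse, split by *Klf2* plus *Klf4* (top row) and by *Thbs1* plus *Cyr61* (bottom row); each line is 1 mouse. By *Klf2* plus *Klf4* the mean of *Edn1* goes from 518 to 106 CPM, and by *Thbs1* plus *Cyr61* from 120 to 501 CPM.

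*Thbs1* and *Cyr61* are targets of the co-activator YAP, which is active in endothelium under disturbed flow. When the same 328 cells were cut by *Thbs1* plus *Cyr61*, *Edn1* was the 1 member that passed the test. This split was chosen with earlier results of these data known. Across cells, *Edn1* went with *Cyr61* (mean *r* 0.46) and *Thbs1* (0.44), so the test is not independent of that pattern. *Edn1* stood at 614, 395, 299 and 694 CPM in the high bin against 99.5, 82.3, 215 and 80.8 CPM in the low bin, higher in 4 of 4 mice. The levels of high and low bins did not overlap, although EC-WT mouse 1 rose least (0.47 on the log2 scale, against 2.26 to 3.10 in the others). By edgeR's quasi-likelihood test with mouse as a block the log2 fold change was 2.10 (SE 0.28, adjusted *P* = 8.36e-05), or 4.27-fold. The mean was 120 CPM in the low, 162 in the middle and 501 in the high bin. It was 1 of 5 members tested to pass, where 1.6% of 3808 genes did (1.18% higher and 0.42% lower).

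The other members did not pass between the *Thbs1* and *Cyr61* bins. *Calcrl* was lower in 4 of 4 mice, at 495, 863, 504 and 539 CPM against 719, 906, 617 and 1033 CPM (log2 fold change -0.41, SE 0.15, adjusted *P* = 0.283). *Ace* was higher in 4 of 4 mice (0.35, SE 0.14, adjusted *P* = 0.312), and *Ece1* in 3 of 4 (0.39, SE 0.15, adjusted *P* = 0.299). *Ramp2* was higher in 2 of 4 mice (-0.12, SE 0.14, adjusted *P* = 0.887). Of the pathway lists, *Pam* rose by 0.71 (SE 0.14, adjusted *P* = 0.00725), *Cpe* by 0.57 (SE 0.13, adjusted *P* = 0.0188) and *Cav1* by 0.54 (SE 0.14, adjusted *P* = 0.0431), which were 1 of 3 adrenomedullin-related, 1 of 5 angiotensin and kinin and 1 of 7 vasoactive genes tested. These calls were lost under 5, 8 and 10 of 14 alternatives, respectively. *Cpe* is not specific to angiotensin or kinins, so its call is not a result about that pathway.

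In 3 mice every cell of the low *Thbs1* and *Cyr61* bin had 0 UMIs of both genes, as did 7, 12 and 10 cells of the middle bin, and these ties were broken by well order. With all cells at 0 as the low group, an alternative added after the data were seen, *Edn1* had 2.19 (adjusted *P* = 1.31e-08). Fibroblast markers moved with this split, from 1695, 1208, 639 and 952 CPM in the low bin to 5068, 1529, 1220 and 1342 CPM in the high bin, with 3 of 4 tested higher. Without the 13 wells rich in them *Edn1* had 2.09 (adjusted *P* = 2.09e-04), and with cells thinned to 2000 UMIs 1.61 (adjusted *P* = 0.001). Smooth muscle markers went from 371, 889, 171 and 323 CPM to 648, 1057, 286 and 222 CPM, with 1 of 2 tested higher (*Tagln*, 1.53). Of 11 endothelial markers tested, *Emcn* was higher (1.46) and *Cldn5* lower (-1.36). The part of these markers was not tested. Both splits use the same cells, and the genes of 1 split moved with the other. Between the *Klf2* and *Klf4* bins, *Thbs1* (-2.70) and *Cyr61* (-1.02) were lower and passed. Between the *Thbs1* and *Cyr61* bins, *Klf2* (-0.34) and *Klf4* (-0.57) were lower but did not pass. The 2 results for *Edn1* are thus not independent of each other.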

How the data were processed

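Aortic cells of 4 mice were measured by SORT-seq, with groups taken from the deposited labels. For each plate the authors deposited UMI counts, read counts and expected counts of transcripts. The expected counts were made by the authors from the UMI counts, with a correction for 4096 possible identifiers. None was normalized or restricted to cells. Their processing notes name BWA 0.7.15, Seurat and GRCm38 (mm10); the counting tool is not given in the sources used here.

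UMI counts were summed per mouse, and per gate or bin within a mouse, and tested with edgeR 4.0.16 in R 4.3.3 (TMM, its filter on low counts, quasi-likelihood, Benjamini-Hochberg over all genes tested, calls at 0.05), with mouse as a block within mice. Expected counts were rounded to whole numbers for the alternative that used them. For thinned cells, the gate and the bins were set again on the thinned counts. DESeq2 1.42.0 was an alternative, beside RLE size factors, no filter, other cell filters, read and transcript counts, thinned cells, other gates and splits, the mouse number as a block, and each mouse left out. Depth was 549570 to 1009034 UMIs per mouse in EC, with 10.0 to 21.9 reads per UMI. Exact binomial and Poisson intervals of 95% were used, and a limit of 3 UMIs per mouse was set for a count of 0. Python 3.11.15, with scipy 1.17.1, numpy 2.4.6, matplotlib 3.10.9 and pandas 2.3.3, was used for levels and figures.

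The tests were tested on simulated counts with 200 genes drawn to change by 2 on the log2 scale; of those that passed the filter, 175 of 197, 145 of 189, 188 of 193 and 198 of 198 were recovered for the comparisons by label, *Fabp4* and *Cd36* gate, *Klf2* and *Klf4* bins and *Thbs1* and *Cyr61* bins, with 7, 2, 10 and 12 other genes called.

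The members, lists, gates and splits were chosen with earlier results of these data known, and list genes were matched by current or older symbols. Genes named are the members, list genes that passed a test or reached 50 CPM, the 3 genes most correlated with each member (for some also the most opposed), *Epas1* and the genes of the gates. List genes below that, marker genes and overlapping genes were named after their values were seen.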

Additional observations from a re-analysis of the deposited data

Results flagged for a closer look

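*Ece1* had log2 ratios of 0.05 and 0.13 between *Fabp4* and *Cd36* cells and other EC in the mice labelled EC-KO. The ratios were -0.43 and -0.49 in those labelled EC-WT, so the sign was shared within each label. In the gated cells these values rest on 53 and 37 *Ece1* UMIs (EC-KO) and 34 and 24 (EC-WT). With few mice per label and 18 contrasts examined, signs can split this way by chance. This difference between labels was not tested. In the comparison of *Klf2* and *Klf4* bins, *Calcrl* of EC-WT mouse 1 (1.47) stood apart from the other mice. It was the 1 value set apart among 18 contrasts examined, where chance sets apart about 1 group in 20. The 1095 wells that were not kept, with 153825 UMIs, still held 266 UMIs of *Ramp2*, 191 of *Ace*, 123 of *Calcrl*, 111 of *Ece1*, 42 of *Edn1* and 6 of *Ednrb*.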

How the results depend on the processing

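*Edn1* kept its direction and its call between the *Klf2* and *Klf4* bins under 13 of 14 alternatives, and between the *Thbs1* and *Cyr61* bins under 13 of 14. *Ace* kept its own in the *Fabp4* and *Cd36* gate under 10 of 11. All 3 lost their calls on read counts, which hold PCR duplicates: *Ace* -1.29 (adjusted *P* = 0.272), *Edn1* -2.97 (0.172) between *Klf2* and *Klf4* bins and 2.49 (0.659) between *Thbs1* and *Cyr61* bins. Without 1 mouse, these ranged from -1.31 to -0.88, -2.81 to -2.09 and 1.83 to 2.66. *Calcrl* between the *Klf2* and *Klf4* bins lost its call without the mouse block, which is the fit with no replicate block (0.76, adjusted *P* = 0.0543), on read counts (0.86, 1.0), thinned (0.49, 0.236), split on *Klf4* alone (0.45, 0.271) and without EC-WT mouse 1 (range without 1 mouse 0.60 to 0.85). Split on *Klf2* alone, *Edn1* had -1.69. The causes were not tested.

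By label, 11 genes were higher and 8 lower without the filter and 10 higher with all kept wells; without 1 mouse, 13 to 26 were higher and 3 to 47 lower, most without EC-WT mouse 1, and each mouse left out gave some. Those fits leave 1 mouse in a label, assumed to vary like the pair of the other label. In the *Fabp4* and *Cd36* gate, 15 were higher on read counts and 33 thinned, and 70 lower by DESeq2, 298 without the filter, 15 on read counts, 47 thinned, 257 with a gate of 5 UMIs and 0.2%, and 67 (without EC-KO mouse 2) to 151 without 1 mouse, beside 92 to 132 higher. Between *Klf2* and *Klf4* bins, the genes higher and lower were 17 and 22 without the block, 24 and 25 by DESeq2, 52 and 61 without the filter, 0 and 0 on read counts, 10 and 11 thinned, 20 and 21 split on *Klf4* alone, and 16 to 47 and 23 to 52 without 1 mouse (lowest without EC-WT mouse 1). Between *Thbs1* and *Cyr61* bins, they were 27 and 4 without the block, 26 and 3 by DESeq2, 78 and 25 without the filter, 1 and 0 on read counts, 6 and 0 thinned, 25 and 5 split on *Cyr61* alone, 33 and 9 without wells rich in fibroblast genes, 54 and 32 with all cells at 0 as the low group, and 19 to 52 and 5 to 18 without 1 mouse (lowest without EC-KO mouse 2).

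Uncalled members changed sign as follows. By label, *Edn1* had 0.52 on read counts (-0.58 to 0.24 without 1 mouse), *Ece1* -0.06 with all kept wells and -0.17 on read counts (-0.04 to 0.12), *Calcrl* -0.08 thinned, *Ramp2* -0.01 with all kept wells (-0.13 to 0.29), *Ace* -0.01 with all kept wells (-0.07 to 0.20) and *Epas1* -0.01 thinned (-0.04 to 0.47). In the gate, *Ece1* had 0.13 thinned, and *Calcrl* -0.34 without the filter, -0.13 on read counts and -0.36 thinned (-0.20 to 0.07). Between *Klf2* and *Klf4* bins, *Ece1* had 0.35 thinned and *Ace* 0.07 thinned and 0.00 split on *Klf2* alone. Between *Thbs1* and *Cyr61* bins, *Ramp2* had 0.13 thinned (-0.24 to 0.00).

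Mice with the same number did not deviate together (*r* -0.0331 over 5029 genes), so they share only a number; with that number as a replicate block, 0 genes passed by label, 331 had an unadjusted *P* below 0.05 and *Edn1* had -0.13. Thinned to 1000 UMIs, the mean share of cells with a UMI was 17.7% for *Edn1* (41.5% unthinned), 55.5% for *Ece1* (90.1%), 48.4% for *Calcrl* (83.1%), 72.3% for *Ramp2* (95.5%), 0.225% for *Ramp3* (4.17%) and 65.8% for *Ace* (89.1%). *Ramp2* gained a call in the gate without the filter and thinned, and between *Klf2* and *Klf4* bins split on *Klf2* alone. *Ednrb*, *Adm* and *Ramp3* did not pass the filter on low counts, so no test of them is given.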
